A study of Mus musculus with 2 samples.

Results

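Aminoacyl-tRNA synthetases are the enzymes that join each amino acid to its matching tRNA, the step that loads tRNAs for protein synthesis. Here 36 mouse synthetase genes were described, 20 for the cytosolic and 16 for the mitochondrial enzymes, out of 43346 genes with an Ensembl identifier in the deposited tables. The rule that chose them used gene symbols and no measured value, though earlier results of these data were known. The mitochondrial genes are those whose symbols end in 2.

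Mitochondria translate the few proteins of their own genome with a separate ribosome, and most of their synthetases come from separate nuclear genes and are imported. Lysine and glycine are exceptions, since Kars and Gars each provide the enzyme for both compartments. In the cytosol, several synthetases sit together in the multisynthetase complex, held by the scaffold proteins Aimp1, Aimp2 and Eef1e1. The others lie outside that complex and are called free here, whatever else they bind. Red cell precursors translate large amounts of globin in the cytosol and make heme in part inside mitochondria, so both compartments are active in this lineage.

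The samples were 2 polyA RNA-seq libraries of G1E-ER4, an established mouse erythroid line labelled male. G1E-ER4 cells have no working Gata1 gene of their own, and an introduced Gata1 fused to the ligand-binding domain of the estrogen receptor becomes active when estradiol is added. Both libraries came from cells given 17beta-estradiol at 10 nM for 7 hours, and no cells without estradiol were analysed here. Replicate 1 held 59610967 expected counts and replicate 2 held 44689405, of which the 36 genes took 0.413% and 0.391%. The labels tie both libraries to one biosample record, so their spread may be technical, and every SD below measures only that spread. With 1 group and 2 libraries no test between conditions was possible, and an exact sign-flip test, two-sided, could not go below p = 0.5.

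The cells carried the markers of their lineage. Levels are in TPM, a unit corrected for transcript length that sums to one fixed total per library. A gene is called expressed where it reached 1 TPM in each library. All 8 erythroid markers were expressed, among them the regulators Gata1 at 1250.55 and 872.16 TPM, Klf1 at 984.09 and 1394.03 TPM and Tal1 at 147.92 and 174.15 TPM in replicates 1 and 2. The globin genes Hbb-bs and Hba-a1 had 11770.45 and 6656.21 TPM and 6572.64 and 3361.02 TPM, and the receptor gene Epor had 183.92 and 153.04 TPM. Of the membrane skeleton genes, Sptb had 339.40 and 317.84 TPM and Ank1 had 199.92 and 197.90 TPM. The Gata1 level may include transcripts of the introduced fusion. Of 6 megakaryocyte markers, Gp1ba (52.56 and 52.67 TPM) and Itga2b (5.12 and 4.21 TPM) were expressed, of 6 myeloid markers Cd68 alone was (1.73 and 1.90 TPM), and of 5 stromal and endothelial markers none was. Of 5 lymphoid markers Ptprcap was expressed, at 82.60 and 76.10 TPM, with Cd3e and Cd4 listed at 0. These are bulk libraries, in which fewer cells of a type and less RNA per cell cannot be told apart.

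Nearly the whole set was expressed. All 20 cytosolic and 15 of 16 mitochondrial genes reached 1 TPM in each library, where 38.3% of the 21474 protein-coding genes did. The exception was Wars2, the mitochondrial tryptophan enzyme, at 0.44 and 0.27 TPM from 87 and 41 counts. The authors' interval for Wars2 ran from 0.378 to 0.655 TPM in replicate 1 and from 0.239 to 0.580 TPM in replicate 2, below 1 in both.

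Cytosolic genes stood higher than mitochondrial genes as a group. The median of the mean TPM was 46.2 over the 20 cytosolic genes and 13.3 over the 16 mitochondrial genes, a ratio of medians of 3.46, beside 20.8 over all expressed protein-coding genes. The order held in each library, with medians of 51.7 and 11.8 TPM in replicate 1 and 38.7 and 14.4 TPM in replicate 2 (cytosolic, then mitochondrial). Summed TPM was 2345 cytosolic against 397 mitochondrial in replicate 1, and 2535 against 466 in replicate 2. The ranges overlapped widely, since mean TPM ran from 3.46 to 1447 among cytosolic and from 0.355 to 114 among mitochondrial genes. Genes are not replicates, so no test was run on these medians.

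**Figure D1:**
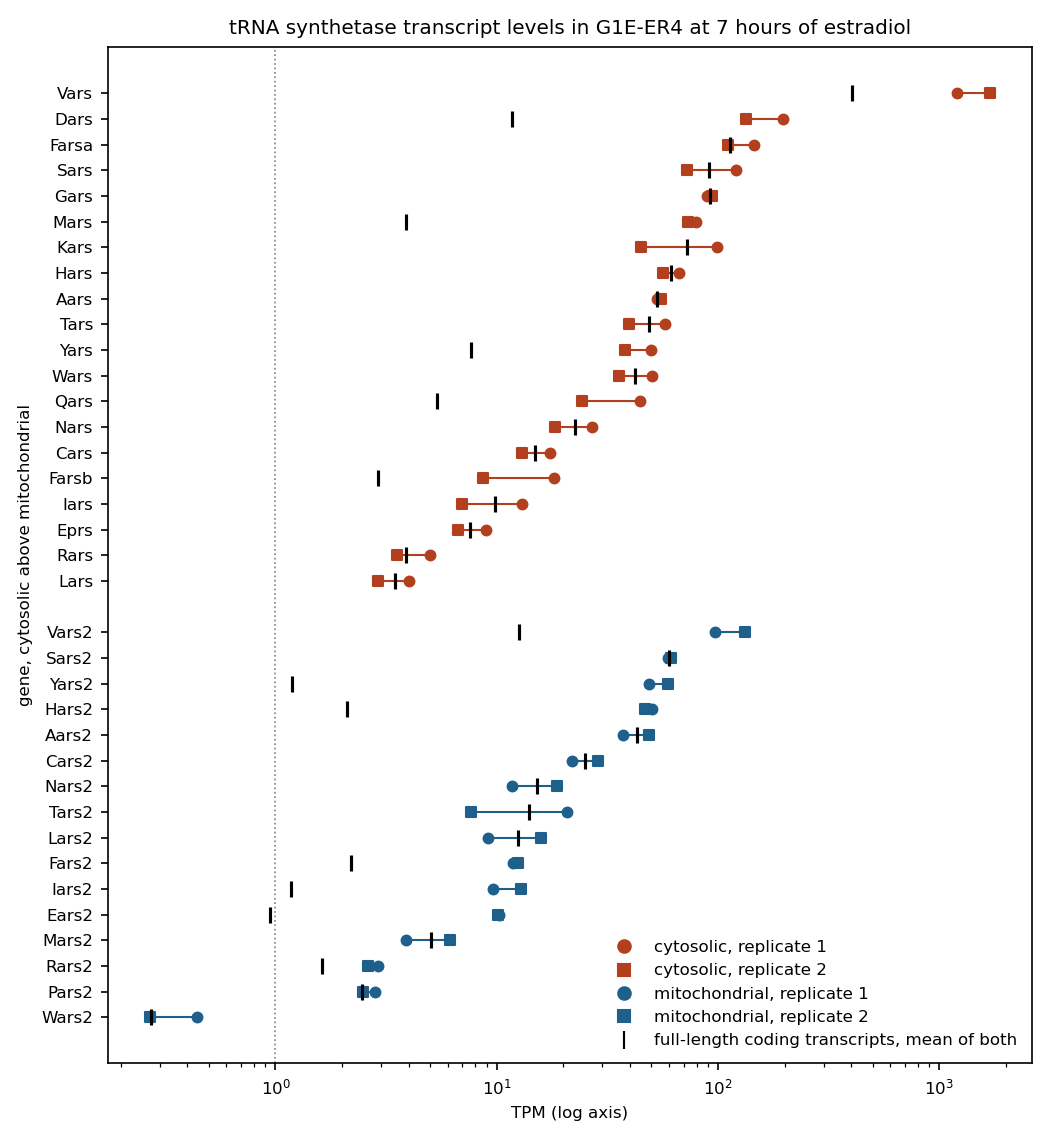
TPM on a log axis for each synthetase gene, cytosolic genes above mitochondrial genes and each class in order of mean level. Circles are replicate 1, squares are replicate 2, and black ticks give the mean level in full-length coding transcripts only. Vars stands apart at 1199.43 and 1695.44 TPM, and for 12 genes, 6 in each class, the tick lies far to the left of the gene's level.

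Among the 12 free cytosolic synthetases, Vars, the valine enzyme (chromosome 17, 35000987 to 35016322, GRCm38), was far above the rest. Vars had 1199.43 TPM in replicate 1 and 1695.44 TPM in replicate 2, which was 51.1% and 66.9% of all cytosolic synthetase TPM. Its lower library lay well above the higher library of every other member, and its mean was 8.76 times that of the second cytosolic gene, Dars. Farsa, the catalytic subunit of the phenylalanine enzyme, had 145.58 and 111.29 TPM in replicates 1 and 2. Farsb, which codes for the other subunit of the same enzyme, had 18.22 and 8.67 TPM, and both of its libraries lay below both libraries of Farsa. Sars, the serine enzyme, had 121.02 and 72.59 TPM. Gars, the glycine enzyme of both compartments, had 88.94 and 94.15 TPM. The tables hold 1 transcript for Gars, so its cytosolic and mitochondrial forms were not separated.

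The other free enzymes were closer together. Hars (histidine) had 66.54 and 56.46 TPM, Aars (alanine) 53.18 and 55.42 TPM and Tars (threonine) 57.61 and 39.53 TPM in replicates 1 and 2. Between these 3 genes the differences were of the size of the spread between the libraries. Wars (tryptophan) at 50.27 and 35.75 TPM and Yars (tyrosine) at 49.76 and 37.89 TPM were likewise not separable from each other. Nars (asparagine) at 26.86 and 18.38 TPM and Cars (cysteine) at 17.37 and 13.03 TPM came lower, and every library of both lay below every library of Wars and Yars.

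The 8 synthetases of the multisynthetase complex had mean levels between 3.46 and 165 TPM, against 13.4 to 1447 TPM for the free enzymes. Dars, the aspartate enzyme, led with 196.43 and 134.21 TPM in replicates 1 and 2, followed by Mars (methionine) with 79.18 and 73.38 TPM. Kars, the lysine enzyme, had 99.43 and 44.80 TPM, a range that covered both libraries of Mars. Qars, the glutamine enzyme, had 44.22 and 24.26 TPM. Iars (isoleucine) had 13.06 and 6.95 TPM, and Eprs, a single protein that charges both glutamate and proline, had 8.92 and 6.70 TPM. Rars (arginine) at 4.97 and 3.53 TPM and Lars (leucine) at 4.01 and 2.90 TPM were the lowest cytosolic genes. The median over the complex was 22.1 TPM, against 51.4 TPM over the free enzymes. Counting full-length coding transcripts only, as defined below, the medians were 6.49 and 50.8 TPM. By that measure Kars led the complex with a mean of 72.1 TPM, and Dars had 11.7 TPM. The complex genes also had the lower median GC content of the coding reference transcript, at 47.7% against 52.9%, and the part of GC content in the difference was not tested.

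The scaffold genes were uneven as well. Aimp2 had 237.90 and 139.85 TPM in replicates 1 and 2, Eef1e1 had 36.85 and 20.81 TPM, and Aimp1 had 4.74 and 1.97 TPM. In full-length coding transcripts Aimp2 had 78.62 and 55.33 TPM, still the highest of the 3. The elongation factor Eef1a1, which carries charged tRNA to the cytosolic ribosome, had 408.69 and 407.09 TPM. The exchange factor genes Eef1b2 (370.26 and 64.96 TPM) and Eef1d (284.81 and 144.53 TPM) were next by mean level. In full-length coding transcripts Eef1a1 had 302.84 and 300.26 TPM, Eef1b2 77.04 and 13.12 TPM and Eef1d 3.68 and 7.53 TPM.

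Among mitochondrial synthetases the valine enzyme also had the highest gene level, though not the highest full-length coding level. Vars2 (chromosome 17, 35655634 to 35667592, GRCm38) had 96.65 TPM in replicate 1 and 132.23 TPM in replicate 2. Sars2 (serine) had 59.25 and 61.23 TPM, Yars2 (tyrosine) 48.70 and 59.42 TPM, Hars2 (histidine) 50.25 and 46.62 TPM and Aars2 (alanine) 37.37 and 48.93 TPM. Sars2 and Yars2 are not separable by their spread, and neither are Yars2 and Hars2. Cars2, the cysteine enzyme, had 21.80 and 28.55 TPM.

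A middle group of 6 mitochondrial genes had means between 10.2 and 15.2 TPM. Tars2 (threonine) had 20.71 and 7.67 TPM in replicates 1 and 2, a range that covered both libraries of Nars2 (asparagine, 11.76 and 18.74 TPM) and of Lars2 (leucine, 9.09 and 15.89 TPM). The others of this group were Fars2 (phenylalanine, 11.86 and 12.46 TPM), Iars2 (isoleucine, 9.66 and 12.81 TPM) and Ears2 (glutamate, 10.29 and 10.09 TPM). Mars2 (methionine) had 3.88 and 6.16 TPM on an annotated length of 11294 bases. Rars2 (arginine, 2.90 and 2.63 TPM) and Pars2 (proline, 2.83 and 2.48 TPM) did not differ beyond their spread.

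Partners of mitochondrial charging fell in the same range. Tsfm and Tufm, the mitochondrial elongation factors, had 61.60 and 84.71 TPM and 57.94 and 44.12 TPM in replicates 1 and 2. Mitochondria make glutaminyl-tRNA by amidation of a glutamate-charged tRNA. Of the genes of that amidotransferase, Gatc had 16.52 and 18.59 TPM, Gatb had 2.08 and 0.75 TPM and Qrsl1 had 1.14 and 0.64 TPM, so 1 of the 3 subunit genes was expressed by the threshold used here. Among genes of tRNA end formation and editing, Aarsd1, an editing protein, had 61.43 and 57.10 TPM, Elac2, the enzyme that cuts the tRNA 3′ end, had 36.10 and 44.10 TPM, and Dtd1, a D-aminoacyl-tRNA deacylase, had 19.40 and 18.44 TPM. Trnt1, which adds the CCA end that synthetases need, had 2.80 and 0.81 TPM. Of other charging genes, Tarsl2, a further threonine enzyme, had 67.81 and 71.27 TPM. Pstk and Sepsecs, which turn seryl-tRNA into selenocysteinyl-tRNA, had 65.62 and 84.70 TPM and 1.55 and 1.58 TPM. In full-length coding transcripts Pstk had 1.47 and 2.36 TPM, level with Sepsecs at 1.55 and 1.58 TPM. By that measure Tarsl2 had 29.38 and 27.45 TPM and Elac2 had 9.54 and 14.17 TPM.

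Kars serves both compartments through alternative first coding exons, and the tables separated its forms. The longer form has 624 codons and carries the mitochondrial leader, and the shorter form has 595 codons. The first coding exon of each is shown from its start codon (capitals), read from GRCm38 on the minus strand at chr8:112008207-112008352 for the longer and chr8:112011210-112011268 for the shorter form.
Kars longer form: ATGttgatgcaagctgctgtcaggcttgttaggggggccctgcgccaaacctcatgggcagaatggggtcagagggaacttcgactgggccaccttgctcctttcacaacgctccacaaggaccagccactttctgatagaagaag
Kars shorter form: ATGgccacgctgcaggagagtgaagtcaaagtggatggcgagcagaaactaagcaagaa
The longer form had 10.10 TPM in replicate 1 and 3.74 TPM in replicate 2, against 89.33 and 41.06 TPM for the shorter form. Its share of the gene was thus 10.2% and 8.35%, a mean of 9.25% ± 1.28 (SD, n = 2). The shares differed by less than 2 percentage points, while the gene's scaled counts differed 2.05-fold between the libraries. Beside the levels of the mitochondrial genes, the longer Kars form would rank 13 of 17 by mean TPM over all transcripts, and 8 of 17 where only full-length coding transcripts are counted.

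Each cytosolic gene was then set against the mitochondrial gene for the same amino acid, as the log2 ratio of TPM in each library. There were 17 pairs, with Eprs in those for glutamate and proline and Fars2 set against each cytosolic phenylalanine subunit. Dars, Gars, Kars and Qars entered no pair. The cytosolic gene was higher in both libraries in 10 pairs and the mitochondrial gene in 3. The median over the pairs of the mean log2 ratio was 0.58. Within each library the median was 0.78 in replicate 1 and 0.25 in replicate 2 (SD of these medians 0.38, n = 2 libraries). The ratio was the higher in replicate 1 in 14 of 17 pairs.

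The widest gap was for tryptophan, where Wars exceeded Wars2 by 6.94 ± 0.15 on the log2 scale (114-fold and 132-fold in replicates 1 and 2). For valine, Vars was 12.4-fold and 12.8-fold above Vars2, the pair with the smallest spread. Farsa was 12.3-fold and 8.93-fold above Fars2, while Farsb over Fars2 gave 1.54 and 0.696 and so changed side between the libraries. The mitochondrial gene was higher for leucine, where Lars over Lars2 was 0.441 and 0.183, for cysteine, where Cars over Cars2 was 0.797 and 0.456, and for glutamate, where Eprs over Ears2 was 0.867 and 0.664. Pairs for alanine, histidine and arginine had the cytosolic gene less than 2-fold higher in each library.

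These ratios count every transcript of a gene, and for 12 synthetase genes most of the TPM was assigned to transcripts not annotated to encode the whole enzyme. A transcript was called full-length coding when it was annotated as protein-coding with both ends of its reading frame complete and that frame at least 80% as long as the gene's longest. This definition was set after the data were seen. The split among transcripts that share bases is the authors' estimate, and it cannot be checked against reads here. By this measure the globin genes fell far below their gene levels. Hbb-bs had 11.36 and 32.47 TPM and Hba-a1 94.37 and 154.58 TPM in replicates 1 and 2. Of the other erythroid markers, Gata1, Klf1, Epor and Sptb had nearly all of their TPM in full-length coding transcripts, and Tal1 and Ank1 most of it. Whether the measure tracks intact mRNA was not tested.

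For 12 of the 36 genes, 6 cytosolic and 6 mitochondrial, the transcript with the highest mean TPM was not full-length coding. In 7 genes it was a retained-intron transcript and in 5 a short or incomplete coding one. In the same 12 genes full-length coding transcripts held under 50% of TPM in both libraries. That is 12 of the 35 expressed members, beside 28.7% of 8150 expressed protein-coding genes that have such a transcript, so the split was common in these tables. Of the 12 leading transcripts 7 were under 1000 bases long, and their lengths ran from 467 to 3222 bases. By position, 8 of the 12 began within the first 10% of the reference transcript, and 3 reached its last 10%.

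**Figure D2:**
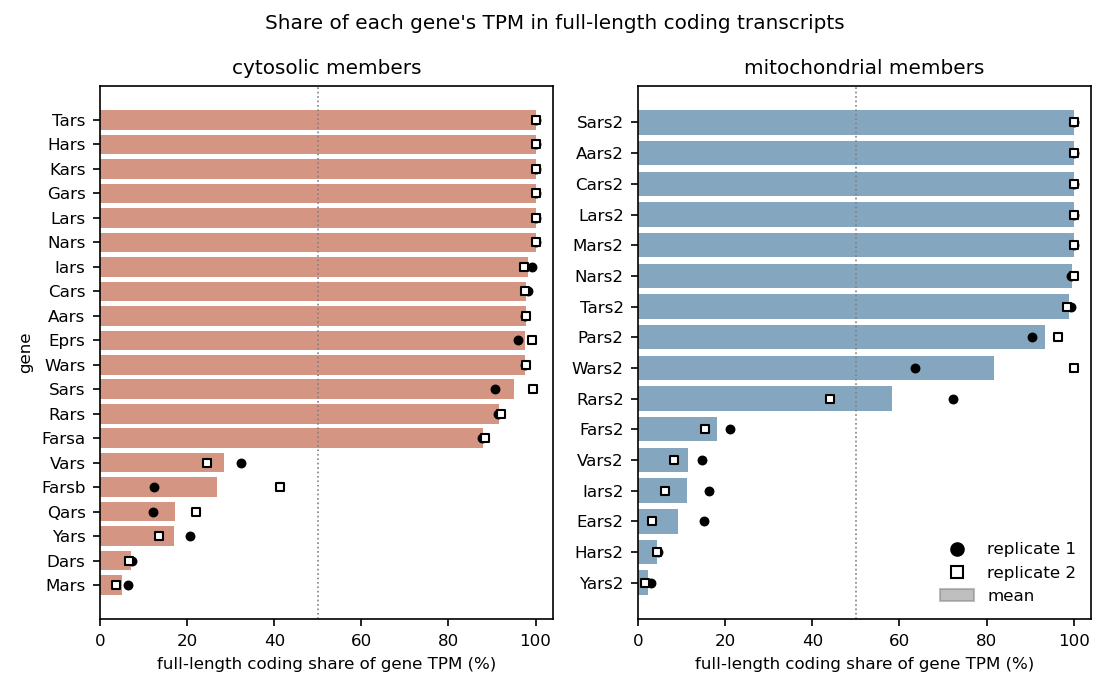
Percent of each gene's TPM in full-length coding transcripts, for cytosolic genes on the left and mitochondrial genes on the right. Bars are the mean of 2 libraries, filled circles replicate 1 and open squares replicate 2, and the dotted line marks 50%. In each class 6 genes lie below that line in both libraries, and 21 genes of 36 are at 90% or more in both.

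Vars was the clearest case by amount. Vars-213, an 819-base coding transcript with an incomplete frame, held 651.65 and 1063.84 TPM, while the full-length Vars-201 held 387.82 and 416.38 TPM in replicates 1 and 2. The full-length level thus repeated more closely than the gene's level, and Vars was still 3.56 times above the second cytosolic gene by that measure, Farsa. TPM divides by length, so short transcripts weigh more in TPM than in counts. By expected counts Vars-201 held 74.5% and 66.0% of the gene, where by TPM it held 32.3% and 24.6%.

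Dars showed the same split more strongly. The 645-base Dars-202, which lies within the first 16.5% of the reference transcript's span, held 92.5% and 93.3% of Dars TPM, and full-length coding transcripts had 14.53 and 8.96 TPM. By expected counts full-length transcripts held 24.8% and 22.4%. Mars had 5.01 and 2.73 TPM in full-length transcripts, with 71.7% and 62.7% of its TPM in the 467-base retained-intron transcript Mars-204. Yars had 10.24 and 5.12 TPM in full-length transcripts and 78.9% and 85.5% of its TPM in the retained-intron transcript Yars-202. For Yars the count share of full-length transcripts was 58.8% and 46.1%.

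Qars changed its leading transcript between the libraries. The retained-intron transcript Qars-212 had 24.08 TPM in replicate 1 and 0.45 TPM in replicate 2. Another retained-intron transcript, Qars-205, had 4.58 and 11.14 TPM. The full-length coding level of Qars was 5.39 and 5.37 TPM, nearly the same in both libraries, while the gene's level differed between them. Farsb had 2.25 and 3.58 TPM in full-length transcripts, with the 970-base Farsb-203 at 10.73 and 3.51 TPM.

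In the mitochondrial class a 772-base retained-intron transcript held 95.3% and 95.8% of Hars2 TPM in replicates 1 and 2. A 1412-base retained-intron transcript held 94.7% and 95.8% of Yars2 TPM. Full-length coding levels were 2.27 and 1.96 TPM for Hars2 and 1.43 and 0.94 TPM for Yars2. By counts those shares were also low, at 13.2% and 12.4% for Hars2 and 3.22% and 1.72% for Yars2. A 3222-base retained-intron transcript held 82.8% and 95.7% of Ears2 TPM. Vars2 had 14.24 and 10.99 TPM in full-length transcripts, a mean of 12.6 TPM and below those of Sars2 (60.2), Aars2 (43.1), Cars2 (25.2), Nars2 (15.2) and Tars2 (14.1), with 73.2% and 77.2% of its TPM in a 722-base retained-intron transcript. Fars2 had 2.49 and 1.91 TPM in full-length transcripts. Iars2 was led by a different short coding transcript in each library, one of 2801 bases with 75.9% in replicate 1 and one of 2431 bases with 79.1% in replicate 2.

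Most of the other 24 genes were nearly all full-length. The lowest of them were Rars2, with shares of 72.4% and 44.1%, and Wars2, with shares of 63.6% and 100%. Tars, Hars, Kars, Gars, Lars and Nars among cytosolic genes, and Sars2, Aars2, Cars2, Lars2 and Mars2 among mitochondrial genes, had 100% of TPM in full-length coding transcripts in both libraries after rounding. The median share was 97.6% over cytosolic and 87.6% over mitochondrial genes, beside 93.0% over expressed protein-coding genes.

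With full-length coding transcripts only, medians were 18.8 TPM over cytosolic and 3.74 TPM over mitochondrial genes, a ratio of 5.01. By full-length transcripts 1 TPM in each library was reached by 20 cytosolic and 12 mitochondrial genes. The cytosolic gene was higher in both libraries in 12 of 17 pairs and the mitochondrial gene in 2, those for cysteine and leucine, and the median log2 ratio was 1.61, with 1.49 in each library. For glutamate the direction turned: the log2 ratio was -0.40 ± 0.27 over all transcripts and 3.42 ± 1.36 (SD, n = 2) over full-length ones. The second value rests on full-length Ears2 at 1.56 and 0.32 TPM, from 149 and 21 counts, below 1 TPM in replicate 2. For methionine the log2 ratio was 3.96 ± 0.55 over all transcripts and -0.40 ± 1.09 over full-length ones, and in the second case the libraries took opposite sides. Histidine, with a log2 ratio of 0.34 over all transcripts, stood at 4.86 over full-length ones. Isoleucine and tyrosine, with mean log2 ratios of -0.22 and -0.31 over all transcripts, stood at 3.07 and 2.64 over full-length ones. Over all transcripts the libraries took opposite sides in both pairs. In replicate 2 full-length Iars2 and Yars2 were below 1 TPM, at 0.79 and 0.94 TPM.

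**Figure D3:**
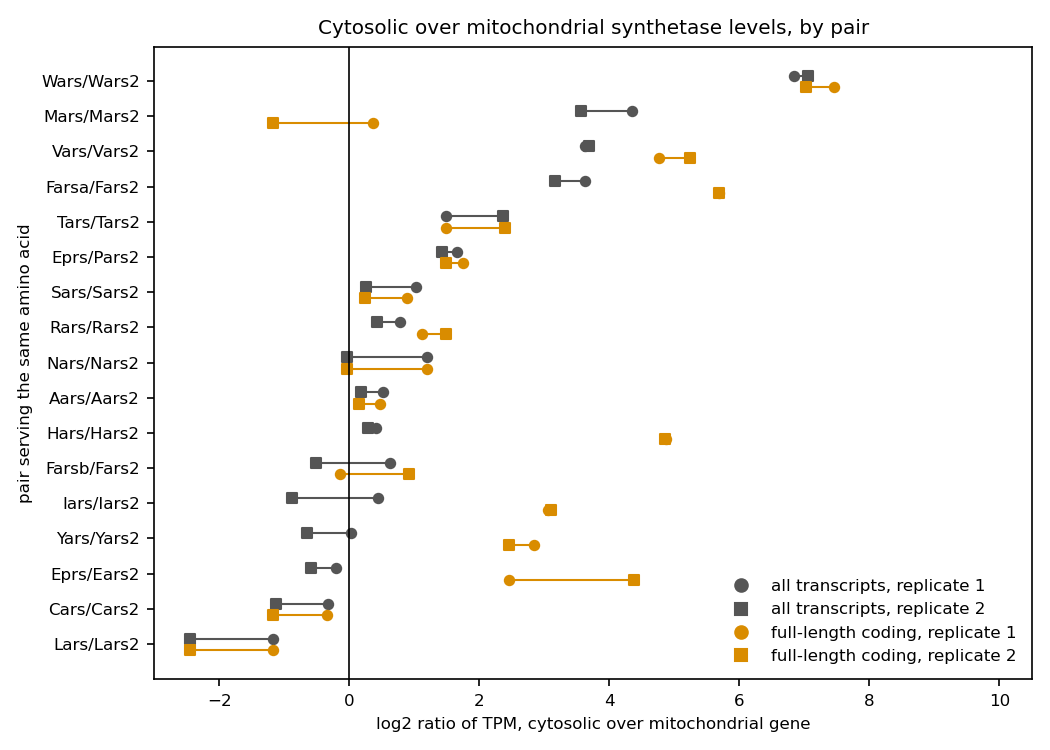
Log2 ratio of TPM, cytosolic over mitochondrial gene, for the 17 pairs in order of the mean ratio over all transcripts. Grey marks use all transcripts and orange marks full-length coding transcripts, with circles for replicate 1 and squares for replicate 2. Leucine and cysteine lie left of 0 by either measure, and glutamate (Eprs/Ears2) and histidine (Hars/Hars2) move far to the right with full-length transcripts.

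The spread between the libraries was somewhat wider for these genes than for expressed genes as a whole. The median coefficient of variation over the 2 libraries was 21.1% over the 36 genes (23.9% cytosolic, 19.0% mitochondrial), beside 17.6% over expressed protein-coding genes. The authors' TPM intervals of the libraries did not overlap for 19 cytosolic and 9 mitochondrial genes, 28 of 36 in all, beside 69.1% of 8219 expressed protein-coding genes. Those intervals cover the estimate within a library and not the spread between libraries.

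Each gene's counts were compared between the libraries with an exact two-sided binomial test on TMM-scaled library sizes, and a gene was called where it was 2-fold or more apart with a Benjamini-Hochberg adjusted p under 0.05. The comparison is of these 2 libraries, with counting as the only source of error. It called 3 of the 36 genes, beside 11.0% of 11285 genes tested. The 3 were higher in replicate 1, where 8.36% of all genes tested were called higher in replicate 1 and 2.68% higher in replicate 2. That is 943 of 1246 calls higher in replicate 1. With sizes set by total counts it was 1420 of 1578 calls, and the median log2 ratio of all genes moved to 0.23, where it was 0.02 with TMM scaling.

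Tars2 had the largest ratio, with 2237 and 585 counts and a fold of 2.48 (adjusted p = 4.77e-98, exact binomial test). Qars had 2921 and 840 counts and a fold of 2.25 (adjusted p = 7.78e-108, exact binomial test). Of the Qars counts, the retained-intron transcript Qars-212 held 1815 and 24, while full-length coding Qars had 5.39 and 5.37 TPM. Kars had 9405 and 2969 counts and a fold of 2.05 (adjusted p = 3.31e-284, exact binomial test). With the spread of the pair as the error, edgeR's exact test called 0 of the 36 and 72 genes in all. At an unadjusted p under 0.05 it had 1 of the 36, Tars2, and 588 of the 11285 genes. Its error was estimated from the same 2 libraries that it compared. Few calls therefore follow from the setting, and the test cannot check the binomial calls. Of the partner genes, Aimp1, Gatb, Trnt1, Eef1b2 and Prorsd1, a gene with an editing domain, were called higher in replicate 1, with log2 ratios of 1.14, 1.07, 1.43, 2.49 and 2.64. These were 1 of 3 scaffold, 1 of 4 cytosolic elongation and 1 of 6 mitochondrial charging partner genes. They were also 2 of 5 genes of tRNA end formation and editing, and 0 of 3 other charging genes. Of all genes tested 8.36% were called higher in replicate 1.

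The direction of the library ratio was counted by class, and the mitochondrial count depended on the scaling and the measure. The ratio of replicate 1 over replicate 2 was above 0 with TMM scaling for 16 of 20 cytosolic and 4 of 16 mitochondrial genes, beside 51.6% of genes tested. The median log2 ratio was 0.38 over cytosolic and -0.18 over mitochondrial genes, against 0.02 over all genes tested. The lowest was that of Lars2 at -0.91, followed by Mars2 at -0.77 and Nars2 at -0.75. With a trend on GC content removed the medians were 0.28 and -0.11, and the counts above 0 were again 16 and 4. Total-count scaling turned the mitochondrial median to 0.03, against a median of 0.23 over all genes, with 18 cytosolic and 9 mitochondrial genes above 0. Full-length TPM turned it to 0.15, with 16 cytosolic and 10 mitochondrial genes higher in replicate 1, beside 62.2% of expressed protein-coding genes. This is a difference between 2 libraries of 1 group, and whether it would repeat in other libraries was not tested.

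**Figure D4:**
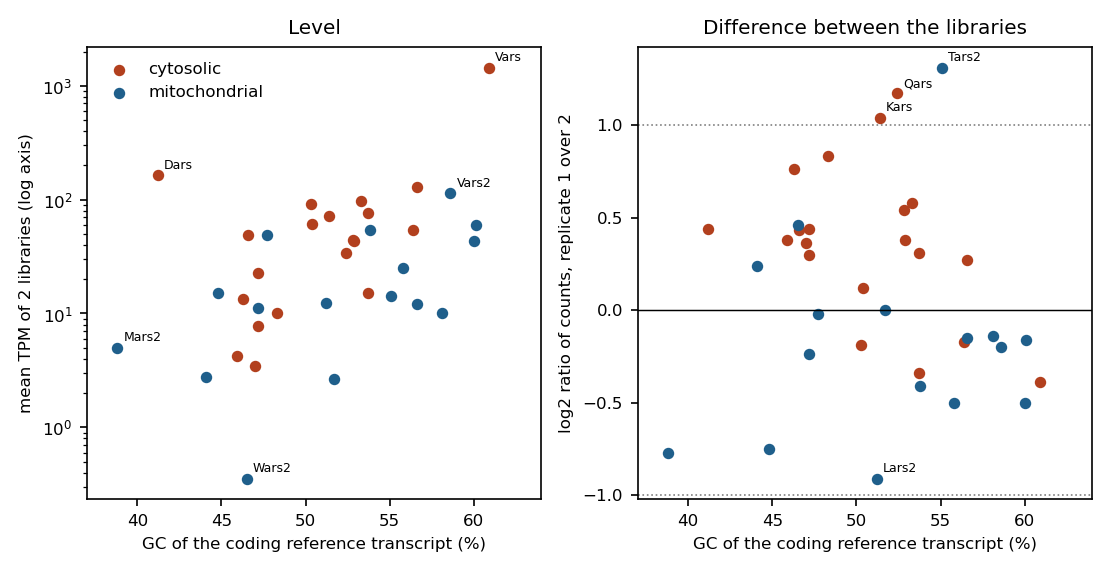
Mean TPM on a log axis (left) and the log2 ratio of counts, replicate 1 over replicate 2 (right), against the GC content of each gene's coding reference transcript, for cytosolic and mitochondrial genes. Dotted lines mark a 2-fold difference between the libraries. Of the 36 genes, Tars2, Qars and Kars lie above the upper line, and 16 cytosolic and 4 mitochondrial genes lie above 0 (18 and 9 with total-count scaling).

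Levels were higher at higher GC content across the 36 genes. Pearson's r between GC and log2(TPM + 1) was 0.48 and Spearman's rho 0.45 (n = 36 genes, which share 2 libraries and are not independent). Over 8203 expressed protein-coding genes the values were 0.31 and 0.32. Within the classes r was 0.56 over cytosolic and 0.59 over mitochondrial genes. With full-length coding TPM, r was 0.40 and rho 0.34 over the 36 genes, close to 0.36 and 0.36 over expressed protein-coding genes. By that measure r was 0.58 over cytosolic and 0.45 over mitochondrial genes. Vars had a GC content of 60.9%, the highest of the set, and Mars2 the lowest, at 38.8%. Median GC was 50.9% over cytosolic and 52.8% over mitochondrial genes, beside 51.2% over expressed protein-coding genes.

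Some members share exon bases with other genes. In GENCODE M21, 13 of the 36 genes overlap another gene's exons on the opposite strand, and the sources used here do not state whether counting used strand. Hars and Hars2 lie head to head and share 195 bases. Iars2 shares 2034 bases with Rab3gap2 (8.46 and 6.65 TPM), and Mars shares 68 bases with Ddit3 (69.32 and 49.00 TPM). Aars shares 1326 bases with Exosc6 on the same strand, and Exosc6 was not analysed here. Reads in such bases could be split either way, and the values of these genes carry that uncertainty.

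Amino acid shortage activates the transcription factor ATF4, which is known to act on many cytosolic synthetase genes through the C/EBP-ATF response element. Of 13 genes of that response, 10 were expressed. Atf5 had 306.54 and 447.30 TPM, Slc7a5, an amino acid transporter gene, had 164.15 and 160.27 TPM, and Atf4 itself had 137.43 and 108.60 TPM. Chac1 and Slc7a11, also responsive genes, were near 0 with 0.07 and 0.02 TPM and 0.01 and 0.00 TPM, and Phgdh, an enzyme of serine synthesis, had 0.75 and 0.19 TPM. Phgdh was called higher in replicate 1, from 22 and 2 counts.

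The promoters were searched for that element, since ATF4 and the synthetases were both expressed. RefSeq promoters on GRCm38.p6, from 250 bases before to 50 after the gene's start, matched 26 of the 36 genes by symbol, 12 cytosolic and 14 mitochondrial. The genes Cars, Hars, Lars, Mars, Nars, Rars, Vars, Wars, Hars2 and Pars2 had no entry. The element was searched as TGATGNAA on both strands and was found in 5 of 12 cytosolic promoters and 0 of 14 mitochondrial promoters, where 4.51% of 27025 genes held it. A match in each of the 5 genes is shown with 12 bases on each side, in the direction of the gene, with the matched letters in capitals. None of these overlapped a match of another motif searched.
Aars at chr8:111033839-111033870 (+): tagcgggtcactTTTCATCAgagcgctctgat
Gars at chr6:55037959-55037990 (+): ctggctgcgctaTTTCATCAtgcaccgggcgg
Iars at chr13:49682125-49682156 (+): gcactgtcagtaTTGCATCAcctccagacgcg
Tars at chr15:11399654-11399685 (-): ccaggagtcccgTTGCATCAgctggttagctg
Yars at chr4:129189894-129189925 (+): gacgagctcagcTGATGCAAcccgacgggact
The match shown began 9 bases after the RefSeq start in Aars, 7 in Iars and 3 in Yars. It began 30 bases before that start in Gars and 15 in Tars. Aars held a second match, not shown, that began 112 bases before its RefSeq start. RefSeq and GENCODE M21 starts can differ: in GENCODE M21 Aars starts at 111033144, before the promoter searched. The 5 genes had mean levels between 10.0 and 91.5 TPM. The other 7 cytosolic genes with a promoter ranged from 7.81 to 165 TPM, so the levels of genes with and without a match overlapped. A match describes these letters only and does not show binding.

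Another 3 motifs were searched. The GATA motif AGATAA, on both strands, lay in 3 of 26 promoters (Farsb, Aars2 and Sars2), where 12.7% of all genes held it. The E-box CACGTG, bound by MYC among others, lay in 5 of 26 (Aars, Farsb, Iars, Tars and Ears2), where 8.09% of all held it. The palindromic NRF1 consensus lay in 0 of 26, where 1.07% of all held it.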

How the data were processed

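For each library the authors deposited gene and transcript tables. Per the notes deposited beside them, values came from alignments to the transcriptome on mm10 with GENCODE M4; no aligner or quantifier is named in the sources used here. Expected counts and posterior mean counts, as deposited, are unnormalized estimates of fragments, rounded here before tests. The deposited TPM values and the authors' interval bounds are scaled for effective length. Names, positions, types and GC came from GENCODE M21 (GRCm38, the same assembly).

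The members, lists and motifs were chosen with earlier results of these data known. All 36 members are named, of other lists the 3 highest genes and any called, and of marker lists those expressed.

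Library sizes were scaled with edgeR 4.0.16 (TMM) in R 4.3.3, with DESeq2 1.42.0 size factors as an alternative. Genes with at least 10 counts were tested in scipy 1.17.1, with a prior count of 0.5 in ratios. Pair ratios used no pseudocount. The GC trend was a lowess fit (fraction 0.3) over 8581 protein-coding genes that reached 50 counts per library. The test was run on simulated counts with 3-fold changes in 200 of 11285 genes and counting as the only error. It called 200 of the 200 in the right direction and 0 of the 11085 others. The simulated libraries had no added spread between them, so this does not gauge false calls in the real pair. The full-length definition, the GC trend and the motifs were chosen after seeing the data.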

Additional observations from a re-analysis of the deposited data

How the results depend on the processing

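No paired analysis was possible because the series has 1 group. The count at a TPM of at least 1 was 35 with either library alone, and 30 at a TPM of at least 5. Leaving out each library gave medians of 38.7 to 51.7 TPM (cytosolic) and 11.8 to 14.4 TPM (mitochondrial), a median pair log2 ratio of 0.25 to 0.78, 10 to 14 pairs with the cytosolic gene higher, and a longer-form Kars share of 8.35% to 10.2%.

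Transcripts annotated protein-coding alone gave a cytosolic median of 32.3 TPM and a median pair log2 ratio of 1.26. Full-length coding transcripts, added after seeing the data, gave 18.8 and 3.74 TPM and 1.61. Counts with no length correction gave 1.13. The glutamate pair turned to a log2 ratio of 3.42 with either transcript restriction and to 0.27 by counts. With full-length transcripts the methionine pair turned to -0.40, and the isoleucine and tyrosine pairs to 3.07 and 2.64. The cause was not tested. The median protein-coding share of 99.1% was 97.9% by posterior mean TPM, 99.7% by counts and 99.3% to 99.8% with 1 library. The median full-length share of 96.3% was 92.9% by posterior mean TPM and 93.7% to 97.7% with 1 library.

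Between the libraries, the cytosolic median log2 ratio was 0.28 with the GC trend removed, 0.59 with total counts and 0.48 by TPM. The mitochondrial median was 0.03 with total counts and 0.15 by full-length TPM. Calls numbered 72, with 0 members, by edgeR's exact test, under which 588 genes and 1 member had an unadjusted p under 0.05. That test took its error from the same 2 libraries, so its low counts follow from the setting. At a fold of 1.5 there were 3106 calls and 8 members. Depth limits Wars2, with 41 counts in replicate 2.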
